A study of Mus musculus with 6 samples.

Results

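Messenger RNA of colonic crypts was compared between mice given dextran sulfate sodium (DSS) for 2 days and untreated mice. DSS is a sulfated polysaccharide that injures the colonic epithelium when it is taken in drinking water. Of the 6 Affymetrix expression arrays of the series, 4 enter this comparison, chosen by their titles: 2 arrays of DSS crypts and 2 of control crypts, with every probe set that is no manufacturer's control. Both groups were male mice of 6 to 8 weeks, heterozygous for Lgr5-lacZ, in which lacZ reports on Lgr5, a receptor of stem cells, and a strain is not given in the sources used here. DSS mice drank 1% DSS and control mice plain drinking water. Each array carried RNA of crypts from the distal colons of 2 mice pooled together. The labels call the 2 arrays of a group independent biological replicates and number them 1 and 2 in each group, without saying what arrays of the same number share. A pool hides the spread between its mice, so the p-values given here measure only the spread between pools. The other 2 arrays held tumor crypts from 12 pooled adenomas of mice of the same genotype. They were taken 90 days after 12.5 mg per kg of the carcinogen azoxymethane and after DSS cycles of 2, 1.5 and 1.0%. Tumor values are given only where stated, but the tumor arrays enter the main fit. Every standard error (SE) and p-value from that fit therefore includes the spread between the tumor arrays.

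A colonic crypt is a gland whose base holds dividing stem cells, marked by Lgr5 and kept by Wnt signalling. Their daughters copy their DNA and divide in the lower crypt, then mature into absorptive colonocytes, mucus-making goblet cells and hormone-making enteroendocrine cells as they move toward the gut lumen. Injury and growth factor signals reach the nucleus within minutes through kinases such as ERK, p38 and JNK, which switch on immediate early genes. These genes encode short-lived transcription factors of the AP-1, EGR and nuclear receptor families and the phosphatases and RNA-binding proteins that end the signal.

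Values are MAS5 signal intensities, which are linear, as the authors deposited them. Differences are DSS minus control on the scale of log2(intensity + 17.7), which shrinks the differences of dim genes. Where values of single arrays are listed, replicate 1 comes before replicate 2. A gene was tested on its brightest probe set if the mean of that probe set over the 4 arrays lay above the median of all probe sets (an intensity of about 98.4), which left 6956 genes. Median intensities of the 4 arrays lay between 94.2 and 106. The crypt label was borne out by the epithelial markers: all 16 pan-epithelial genes passed the filter, and the adhesion gene Epcam measured 12936 and 12682 in control and 14732 and 12534 in DSS crypts. Neutrophil markers (0 of 11 on the array above the filter) and T and NK cell markers (0 of 13) were near background on all 4 arrays. Summed intensities of smooth muscle markers were 1735 and 5833 in control and 2394 and 5460 in DSS crypts. Those of B and plasma cell markers were 406 and 2757 and then 256 and 3662, so both sums differed far more between the replicate numbers than between the groups.

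DSS replicate 2 stood apart from the other arrays in genes of digestive enzymes that are known from the exocrine pancreas. Of 22 such genes on the array, from a list made after the values were seen, 18 measured under 100 on the other 3 arrays. Of these, 13 were picked for at least 300 in DSS replicate 2. They measured 386 to 6168 there and 0.855 to 74.9 on the other 3 arrays, a contrast set by this choice. Cela1 (9132 and 7561 in control, 12358 and 8926 in DSS crypts), Sycn (11199 and 12983, then 16286 and 12843) and Pnliprp2 (1005 and 66.6, then 171 and 573) were not highest in DSS replicate 2. Of the 13, Pnliprp1 (1963 and 3391) and Rnase1 (647 and 640) were also bright in tumor crypts. The trypsinogen gene 2210010C04Rik, on its probe set brightest in that array, measured 3.22 and 0.855 in control crypts, 10.5 in DSS replicate 1 and 6168 in DSS replicate 2. Carboxypeptidase B1 (Cpb1) measured 1.55 and 9.3, then 8.09 and 4211. Reg1, a secreted lectin-like protein of the same cells, measured 11.2 and 6.6, then 6.14 and 2423. The part of this signal in other results was not tested, and the leading lists are also given without DSS replicate 2. The number of arrays limits the precision. Poly-A transcripts added as labelling controls averaged 631 and 948 in control and DSS replicate 1 and 267 and 289 in control and DSS replicate 2.

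**Figure D1:**
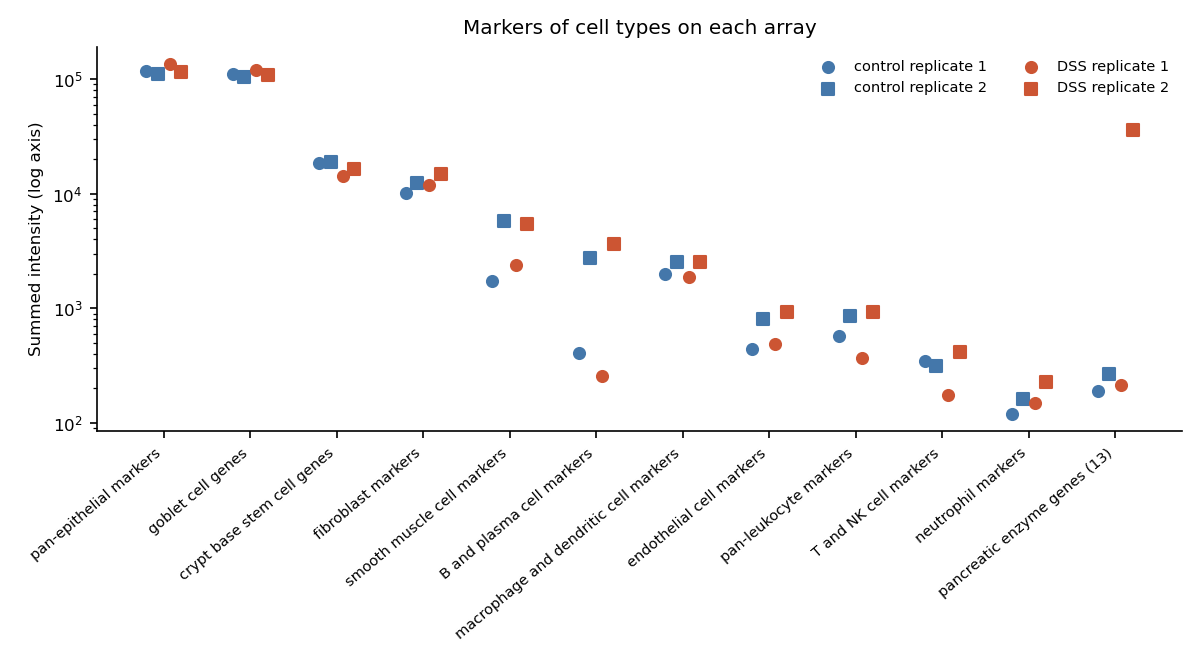
Summed intensity (log axis) of marker genes of each cell type on the 2 control arrays (blue) and the 2 DSS arrays (red), with circles for replicate 1 and squares for replicate 2. The 13 pancreatic enzyme genes, picked for being bright only in DSS replicate 2 among these arrays, sum to 36264 there. They sum to 189 to 269 on the other arrays shown. Smooth muscle and plasma cell markers are higher in both arrays numbered 2.

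No single gene passed the test between DSS and control crypts. limma, which fits all genes with a shared estimate of spread, called 0 of 6956 genes (0%) at an adjusted p under 0.05, and the smallest adjusted p was 0.165, for Hbegf. At an unadjusted p under 0.05 there were 70 genes higher (1.01%) and 101 lower (1.45%). The 2 DSS arrays lay above both control arrays in 889 genes (12.8%) and below both in 950 (13.7%). These 2 shares are the background for every count of genes above or below control in the lists that follow. The lists were chosen with earlier results of these data known, so a count above these shares is a description and no independent support. The median difference over all genes was 0.01. What follows describes the sizes, directions and repeats of differences, none of which passed the test.

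Arrays of the same number resembled each other more than arrays of the same group did. Across the tested genes, which are not independent of each other, the correlation (Pearson's r) of log2 intensities was 0.982 between control and DSS replicate 1 and 0.984 between control and DSS replicate 2, against 0.970 for the control arrays and 0.977 for the DSS arrays. For this reason each difference is also given within the pairs, DSS replicate 1 minus control replicate 1 and DSS replicate 2 minus control replicate 2. Both pairs were higher in 1751 genes (25.2%) and both lower in 1699 (24.4%). Both pairs reached at least 0.5 in 35 genes higher (0.503%) and 41 lower (0.589%), and at least 1 in 7 higher (0.101%) and 6 lower (0.0863%). Of the 35 higher genes, 13 were immediate early genes, a list that made up 35 of the 6956 genes tested. Of the 41 lower genes, 4 were crypt base genes (15 tested), 4 DNA replication genes (39 tested) and 4 colonocyte genes (27 tested). In no list were 22 of the 41.

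**Figure D2:**
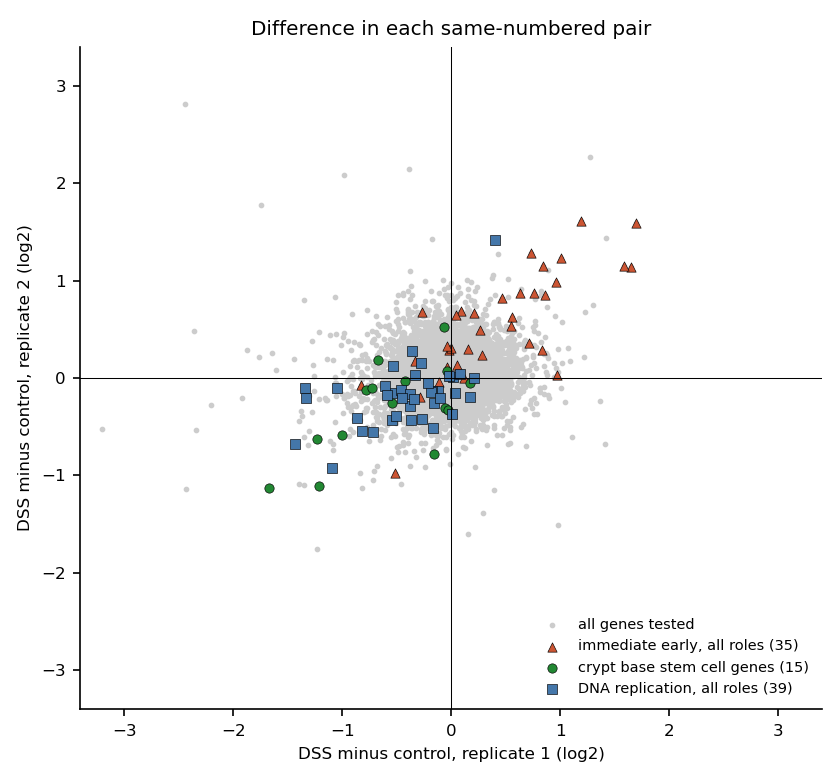
Difference in intensity between DSS and control crypts (log2) in replicate 1 (horizontal) and replicate 2 (vertical) for each gene tested. Immediate early genes (triangles) reach the upper right, with Atf3 at 1.69 and 1.59, while crypt base genes (circles) and DNA replication genes (squares) lie mostly to the lower left. The axes end at 3.4, which leaves 2 pancreatic genes, 2210010C04Rik and Pnliprp1, outside.

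Among the chosen lists, immediate early genes made up the clearest group of higher genes. Of 35 tested, 30 were higher in DSS crypts (51.2% of all genes were) and 21 had both DSS arrays above both control arrays, where 12.8% of all genes did. Both arrays were below both controls for 3 of them. The median difference was 0.44, with 0.28 in pair 1 and 0.53 in pair 2, and 0.30 without DSS replicate 2. A further 8 of the 43 on the array lay below the filter.

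AP-1 is a dimer of Jun, Fos and ATF proteins that binds DNA at injury and growth genes. The 7 subunits that were tested all had DSS arrays above the control arrays, with a median difference of 0.75. Atf3, the subunit best known for its induction by cell stress, measured 723 and 1025 in control crypts, then 2379 and 3112 in DSS crypts. Its means were 874 ± 213 and 2746 ± 518 (SD, n = 2 and 2), a difference of 1.64 ± 0.31 (SE) with an adjusted p of 0.428 from limma. Both DSS arrays lay far above both control arrays, and the pairs were close, at 1.69 and 1.59. Junb, a Jun family subunit, measured 740 and 573 in control and 1509 and 1368 in DSS crypts, a difference of 1.12 ± 0.22. Jun measured 3848 and 3267, then 5976 and 5981, with 0.75 ± 0.15. Both were higher in each DSS array by amounts larger than the gap between the control arrays.

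Fos, the first described partner of Jun, was already bright in control crypts, at 8092 and 7269, and measured 11974 and 11225 in DSS crypts (0.60 ± 0.18). Fosb, its close relative, was dim and spread widely: 86.3 and 177 in control, 219 and 577 in DSS crypts. The lower DSS value of Fosb lay only slightly above the higher control value, yet each pair differed clearly, by 1.19 and 1.61. Jund differed by 0.64 ± 0.20. Maff, a small Maf protein, differed by 0.97 in pair 1 and by 0.03 in pair 2, so its difference of 0.50 came from replicate 1. Fosl1 lay below the filter, with 11.8 and 25.9 in control and 33 and 61.1 in DSS crypts on its brighter probe set.

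Of the 7 zinc finger and nuclear receptor factors tested, 5 had DSS arrays above the control arrays, and the median was 0.98, or 0.56 over the whole list with no filter. Egr1, a factor that responds to ERK, measured 3380 and 3150 in control and 6078 and 7012 in DSS crypts (1.00 ± 0.28, adjusted p = 1 by limma). Egr2 measured 41.7 and 131, then 169 and 310 (1.40 ± 0.43), and 1.08 on its other probe set. Nr4a1, an orphan nuclear receptor, measured 261 and 719, then 816 and 1620 (1.37 ± 0.55). For Nr4a1 and Egr2 the control arrays differed as much as the groups did, and within pairs the differences were 1.58 and 1.15 for Nr4a1 and 1.65 and 1.14 for Egr2. Klf10, an early target of TGF-beta, had a much smaller spread: 644 and 588 in control and 1273 and 1184 in DSS crypts, a difference of 0.98 ± 0.16 (unadjusted p = 0.000232, adjusted p = 0.401 by limma). By comparison Klf4, a bright differentiation factor, differed by 0.16 and Klf6 by 0.14.

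Among the 21 other early genes, 9 lay above and 3 below, and the median was 0.26, or 0.16 without DSS replicate 2. Ier2, a nuclear early response protein, measured 3084 and 2896 in control and 5631 and 5221 in DSS crypts (0.86 ± 0.15, adjusted p = 0.401). Btg2, which slows cell division and is also a p53 target, measured 3320 and 3187, then 5632 and 5829 (0.81 ± 0.15, adjusted p = 0.401), and 0.96 on its other probe set. In both genes the groups differed by far more than the arrays within a group, and the pairs gave 0.86 and 0.85 for Ier2 and 0.76 and 0.87 for Btg2. Zfp36, which destabilizes cytokine messages, measured 1315 and 1081, then 2189 and 2642 (1.00 ± 0.40). Its tumor arrays, which enter this SE, measured 932 and 2635. Plk2 (0.56), Errfi1 (0.53), which dampens the EGF receptor, and Rhob (0.44) were also above control on both arrays. Not all early genes shared the direction. Sgk1, a kinase that promotes sodium uptake, measured 1444 and 2270 in control and 998 and 1139 in DSS crypts (-0.75 ± 0.24), Myc was at -0.45 ± 0.23 and Gadd45a at -0.24 ± 0.18. Mcl1, Ier5, Pim1 and Btg1 lay between -0.07 and 0.06.

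Promoter sequences are shown for 3 of these genes and for Dusp1, the phosphatase described next, because a short motif recurs in them. The motif is TGACG, the core of the cAMP response element (CRE) bound by CREB and ATF proteins, and the full element is TGACGTCA, which holds the core on both strands. The 250 bases before the start of the transcript were searched on both strands in RefSeq promoters of GRCm38.p6. The core was present in 8 of the 9 genes that are named here as higher and have a promoter entry (88.9%), in 17 of 30 immediate early genes tested (56.7%), in 1870 of the 5734 genes tested that have an entry (32.6%) and in 19.8% of all 27025 genes of the table. The full element was in 2 of the 9, against 3.02% of the genes tested. The AP-1 motif TGANTCA was in 0 of the 9 (5.63% of genes tested) and the CArG box bound by SRF in 1 of 9 (1.52%). Among the 11 genes named as lower with an entry, the core was in 3 and the AP-1 motif in 3. Capitals mark each match to the core or the full element (CGTCA where the core lies on the other strand), and bases run 5′ to 3′ to the base before the start. A match is a description of these letters and not a measured site.
Atf3 (chr1:191183334-191183583, minus strand): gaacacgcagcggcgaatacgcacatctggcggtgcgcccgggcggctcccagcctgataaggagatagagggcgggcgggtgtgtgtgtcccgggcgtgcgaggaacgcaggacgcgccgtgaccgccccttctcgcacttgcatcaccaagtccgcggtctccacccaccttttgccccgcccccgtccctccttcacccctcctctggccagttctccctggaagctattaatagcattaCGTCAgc
Junb (chr8:84978749-84978998, minus strand): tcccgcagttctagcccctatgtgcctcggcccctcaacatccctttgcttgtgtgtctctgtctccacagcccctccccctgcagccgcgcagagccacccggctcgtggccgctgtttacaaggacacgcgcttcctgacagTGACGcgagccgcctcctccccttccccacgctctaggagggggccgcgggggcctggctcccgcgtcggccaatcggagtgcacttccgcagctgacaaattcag
Dusp1 (chr17:26508473-26508722, minus strand): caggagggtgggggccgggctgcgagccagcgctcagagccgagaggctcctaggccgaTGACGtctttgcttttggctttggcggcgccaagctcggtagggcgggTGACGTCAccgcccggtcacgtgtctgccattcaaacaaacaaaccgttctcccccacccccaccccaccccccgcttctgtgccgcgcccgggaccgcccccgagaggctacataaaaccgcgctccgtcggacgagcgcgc
Btg2 (chr1:134079156-134079405, minus strand): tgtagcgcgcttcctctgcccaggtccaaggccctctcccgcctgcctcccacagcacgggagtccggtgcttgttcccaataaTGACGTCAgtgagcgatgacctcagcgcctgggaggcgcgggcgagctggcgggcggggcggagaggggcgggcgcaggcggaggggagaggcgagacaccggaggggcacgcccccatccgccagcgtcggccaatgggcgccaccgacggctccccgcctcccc
In Atf3 the core lies 7 bases before the start, in Junb 106, while Dusp1 and Btg2 hold the full element. Hbegf, Klf10, Ier2, Egr1 and Adamts15 had no promoter entry.

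Growth factor signalling genes showed a few large differences among many small ones. Hbegf, an EGF receptor ligand that is shed from the cell surface, measured 524 and 470 in control and 1430 and 1308 in DSS crypts. Its means were 497 ± 38.5 and 1369 ± 86.3 (SD, n = 2 and 2), a difference of 1.43 ± 0.17 (SE) with the smallest p of all genes, 2.37e-05, and an adjusted p of 0.165 from limma. The pairs were 1.42 and 1.44, and its other probe set gave 1.64. Of the 7 EGF family genes tested, 5 lay above control on both DSS arrays and the median was 0.33, or 0.17 without control replicate 2. With a filter at the 75th percentile it was 0.92, where 2 of the genes were left. The receptors Erbb3 (2467 and 2326, then 3326 and 3026) and Erbb2 (384 and 276, then 439 and 427) were at 0.40 and 0.39. Egfr itself was at 0.05 and the ligand Tgfa at -0.14, and the ligands Ereg and Epgn were below the filter.

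Among 7 feedback regulators of ERK, only Dusp1, which removes phosphate from p38, JNK and ERK, differed by more than 0.5. It measured 2564 and 2657 in control and 4750 and 5744 in DSS crypts (1.00 ± 0.21, adjusted p = 0.592 by limma), with 0.89 and 1.11 in the pairs. The Sprouty inhibitors Spry1 and Spry2 were at 0.38 and 0.31, Dusp6 at 0.13 and Spred1 at -0.01. The median of the 7 was 0.13, or 0.31 without DSS replicate 2, and the ERK target factors Etv4 and Etv5 lay below the filter.

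**Figure D3:**
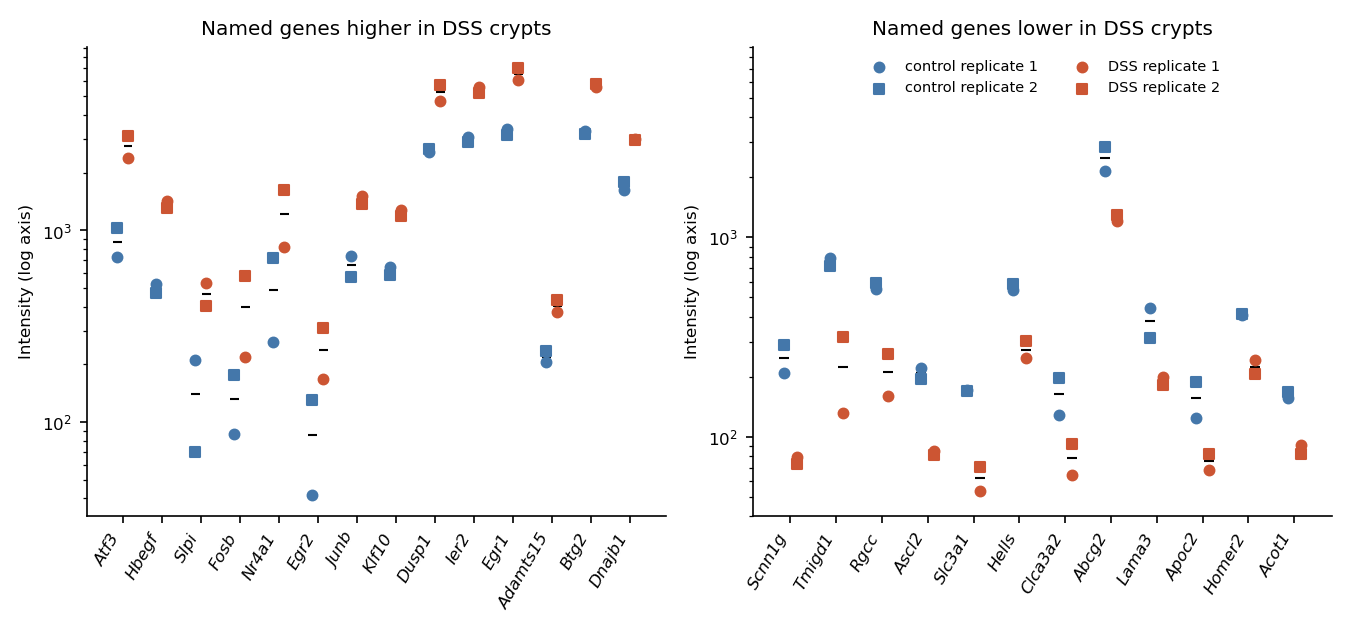
Intensity (log axis) of the 26 genes named by a fixed rule of size or p on the 2 control arrays (blue) and the 2 DSS arrays (red), with circles for replicate 1, squares for replicate 2 and bars for group means. The groups do not overlap in any of the 26, with 14 higher genes on the left and 12 lower genes on the right. All were chosen for this except Btg2 and Dnajb1, which entered by p alone.

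A few genes outside the early response belong to the same set of named higher genes. Slpi, a protease inhibitor of mucosal surfaces, measured 211 and 69.9 in control and 533 and 405 in DSS crypts (1.77 ± 0.39, adjusted p = 0.685 by limma), with 1.27 in pair 1 and 2.27 in pair 2. The control arrays of Slpi differed from each other by more than those of most named genes, and both DSS arrays lay above them. Adamts15, a secreted metalloprotease, measured 205 and 234, then 375 and 436 (0.83 ± 0.20). Dnajb1, a co-chaperone of Hsp70, measured 1617 and 1790, then 2991 and 2981 (0.81 ± 0.15), and 1.03 on its other probe set.

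Crypt base genes were lower in DSS crypts. Of 15 tested, 12 were lower (48.8% of all genes were), 10 had both DSS arrays below both control arrays where 13.7% of all genes did, and 0 lay above. The median was -0.40, with -0.54 in pair 1 and -0.26 in pair 2, and -0.52 without DSS replicate 2 or -0.26 without DSS replicate 1. Ascl2, the transcription factor that sets stem cell identity with Wnt, measured 221 and 196 in control and 85.5 and 81.4 in DSS crypts. Both DSS values lay below the filter level, so Ascl2 passed it only through the control arrays. Its means were 208 ± 18.1 and 83.4 ± 2.87 (SD, n = 2 and 2), a difference of -1.16 ± 0.19 (adjusted p = 0.401 by limma). The pairs were alike, at -1.21 and -1.11, and its other probe sets, below the filter, gave -0.56 and -1.99. In crypt RNA, fewer cells of a type and less RNA per cell cannot be told apart.

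Rgcc, a regulator of the cell cycle, measured 550 and 592 in control and 160 and 261 in DSS crypts (-1.40 ± 0.23, adjusted p = 0.401), and was lower in both pairs on its other probe set (-1.04 and -0.96). Cdca7, a Myc target of cycling cells, measured 578 and 524, then 235 and 333 (-0.93 ± 0.21). Axin2, a feedback inhibitor that Wnt itself induces, measured 206 and 188, then 94.1 and 120 (-0.79 ± 0.22), while its other, dim probe set gave -0.01. These 4 genes differed by at least 0.5 in both pairs. Lgr5, the gene that carries the reporter in all groups, lay below the filter at 72.5 and 97.8 in control and 19.3 and 48.2 in DSS crypts. Both DSS values of Lgr5 were below both controls, at intensities where background is a large part of the signal.

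Differences of the remaining crypt base genes were smaller. Smoc2 was at -0.47, the guidance receptor Ephb3 at -0.45, Prom1 at -0.41 and the Wnt receptor ligase Rnf43 at -0.40, each with DSS arrays below the control arrays. For Ephb3 and Prom1 the difference came mostly from pair 1 (-0.78 and -0.73, against -0.12 and -0.10 in pair 2), and for Smoc2 from pair 2 (-0.78, against -0.16). Sox9, a factor of progenitor cells, Ephb4 and the Notch target Nrarp lay between 0.01 and 0.22. Genes given for slow-cycling or regenerating cells had a median of 0.08 over 11 tested. Hopx was the lowest at -0.42 ± 0.16 (2083 and 2189 in control, 1603 and 1573 in DSS crypts), and Clu, a secreted chaperone, the highest at 0.38 (230 and 305, then 287 and 424), with overlapping groups. The 7 Wnt ligands, receptors and feedback genes above the filter had a median of 0.04 and the 7 Notch pathway genes 0.03, with Ctnnb1, the beta-catenin gene, at 0.09 and the Notch target Hes1 at 0.34.

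**Figure D4:**
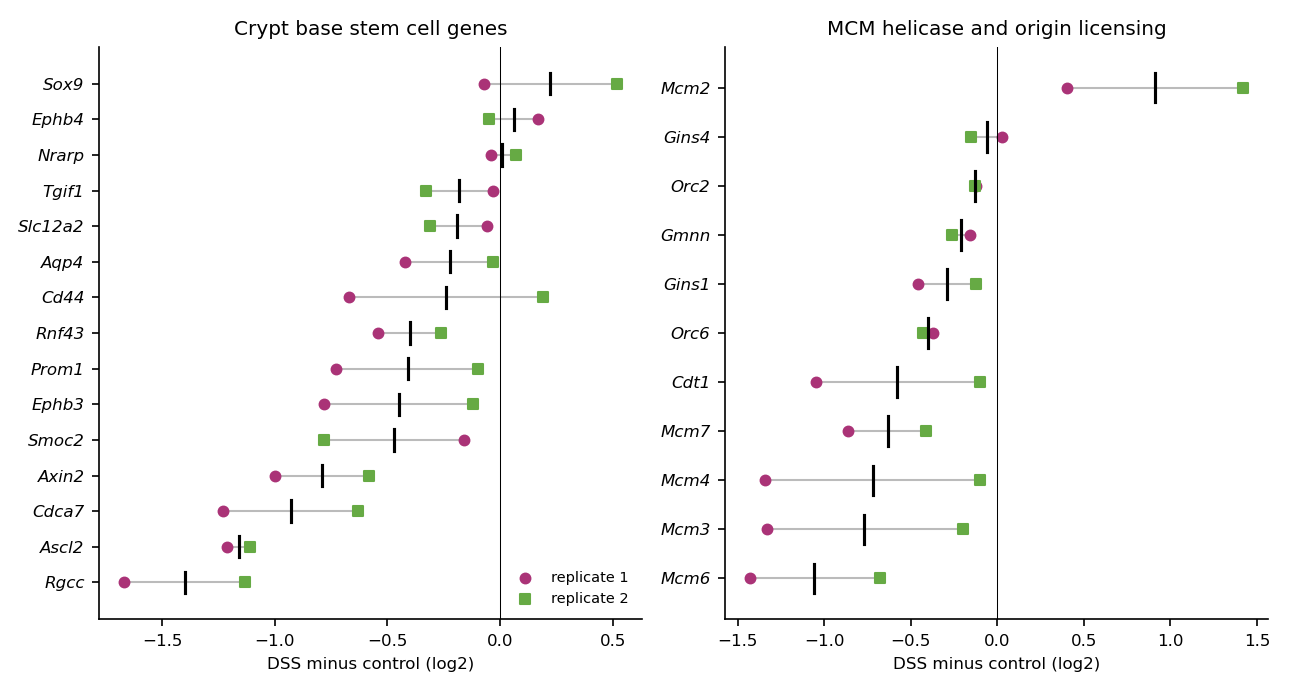
Difference between DSS and control crypts (log2) for each crypt base gene (left) and each gene of the replicative helicase and its loading (right), with circles for replicate 1, squares for replicate 2 and bars for their mean. Ascl2 and Rgcc are below -1 in both pairs, most helicase genes are farther from 0 in replicate 1, and Mcm2 is the exception on its tested probe set at 0.91.

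Genes of DNA replication were lower as well. Of 39 tested, 34 were lower and 21 had both DSS arrays below both control arrays (13.7% of all genes), while 2 lay above. The median was -0.28, or -0.36 without DSS replicate 2, with -0.36 in pair 1 and -0.16 in pair 2, and 28 of the 39 had the larger difference in pair 1. The first step is the loading of the MCM helicase at origins. Mcm6, a subunit of this ring, measured 775 and 680 in control and 276 and 418 in DSS crypts (-1.06 ± 0.24), with -1.43 and -0.68 in the pairs. Mcm7 measured 1392 and 1115, then 761 and 837 (-0.63 ± 0.19). Mcm3 and Mcm4 were at -0.77 and -0.72, but nearly all of that was in pair 1 (-1.33 and -1.34, against -0.20 and -0.10 in pair 2). Control replicate 1 was the high array for both genes, with Mcm4 at 680 there and at 257 to 362 on the other 3 arrays. The same array stood out for the loading factor Cdt1, at 1082 against 452 to 512. Without control replicate 1 the median of the 11 helicase and loading genes was -0.28, against -0.40 with all arrays. Mcm2 disagreed between its probe sets, at 0.91 on the tested one and -0.77 on the other, and no direction is drawn for it.

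Of 28 DNA synthesis and S-phase genes tested, 24 were lower, 15 had DSS arrays below the control arrays and the median was -0.24. Without control replicate 1, 19 were lower and 9 higher, and the median was -0.20. Hells, a chromatin remodeler needed for DNA methylation, measured 546 and 587 in control and 248 and 301 in DSS crypts. Its means were 566 ± 28.9 and 274 ± 37.6 (SD, n = 2 and 2), a difference of -1.01 ± 0.18 (adjusted p = 0.401 by limma), and the pairs were -1.09 and -0.92. Uhrf1, which brings Dnmt1 to copied DNA, was at -0.68 ± 0.24, the uracil glycosylase Ung at -0.64 ± 0.26, the ligase Lig1 at -0.48 ± 0.19 and the primase Prim1 at -0.45 ± 0.20. Pcna, the sliding clamp, measured 3795 and 4339, then 3363 and 3039 (-0.34 ± 0.18). Others were level: Rfc5, Prim2, Rfc2 and Tk1 lay between 0.00 and 0.10.

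Promoters of Hells and Mcm6 are shown for the E2F motif, which E2F factors bind at replication genes. It was searched as TTTCCCGC, TTTCGCGC, TTTGCCGC and TTTGGCGC on both strands, and matches can overlap when the motif runs back on itself. In the 250 bases before the start it was found in 7 of the 31 DNA replication genes tested with an entry (22.6%), in 1 of 11 crypt base genes (9.09%), in 4.13% of all genes tested with an entry and in 0 of 30 immediate early genes. Capitals mark the matches.
Hells (chr19:38930740-38930989, plus strand): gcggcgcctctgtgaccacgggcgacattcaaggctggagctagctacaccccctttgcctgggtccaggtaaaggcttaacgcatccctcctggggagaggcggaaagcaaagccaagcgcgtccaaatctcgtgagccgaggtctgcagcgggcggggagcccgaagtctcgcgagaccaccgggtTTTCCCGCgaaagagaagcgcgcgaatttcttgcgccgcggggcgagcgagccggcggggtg
Mcm6 (chr1:128359706-128359955, minus strand): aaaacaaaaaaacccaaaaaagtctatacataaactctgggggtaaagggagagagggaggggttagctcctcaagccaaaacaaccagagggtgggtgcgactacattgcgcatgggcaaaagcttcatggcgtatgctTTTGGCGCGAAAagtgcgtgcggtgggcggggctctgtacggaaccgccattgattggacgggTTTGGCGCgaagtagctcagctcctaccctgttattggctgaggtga
Hells has 1 match and Mcm6 has 3, of which 2 overlap.

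Mitosis genes did not share the direction of the replication genes. Of 29 tested, 17 were higher and 12 lower, and the median was 0.04. Both DSS arrays lay above both controls for 4 and below for 4, near the shares of all genes (12.8% and 13.7%). Mki67, the usual marker of dividing cells, measured 1071 and 1014 in control and 962 and 1235 in DSS crypts. The cyclin Ccnb2 was at 0.37 ± 0.21, Cdc20 at 0.25 ± 0.32, the kinase Cdk1 at -0.21 ± 0.19 and Top2a at -0.14 ± 0.16. The G1 kinase Cdk4 measured 669 and 633, then 496 and 496 (-0.38 ± 0.16), and the CDK inhibitor Cdkn1a 2681 and 2440, then 1957 and 2037 (-0.35 ± 0.16). Cyclin D1 (Ccnd1) was lower only in pair 1, at -0.77 against 0.10. p53 targets had a median of 0.01 over 15 genes, from Btg2 at 0.81 to Cdkn1a at -0.35. Whether the lists of replication and mitosis genes differ from each other was not tested.

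Ribosome biogenesis genes were lower in 22 of 25 cases, with a median of -0.24. DSS arrays lay below the control arrays for 12 and above for 1, against 13.7% and 12.8% of all genes. The nucleolar GTPase Gnl3, which is abundant in stem cells, measured 997 and 936 in control and 631 and 593 in DSS crypts (-0.64 ± 0.16), with -0.65 and -0.64 in the pairs. Gnl3 was the single member with at least 0.5 in both pairs. Wdr12, needed for the large ribosomal subunit, measured 294 and 294, then 185 and 209 (-0.54 ± 0.18). For most of the list, 21 of 25, pair 1 had the larger difference, and the medians were -0.35 in pair 1 and -0.12 in pair 2. Without control replicate 2 the median was -0.42 and without control replicate 1 it was -0.08, so the size of this difference depends on the control array used.

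Colonocyte and transport genes held several of the lowest genes while the lists as a whole had medians near 0. Scnn1g, the gamma subunit of the epithelial sodium channel, measured 210 and 289 in control and 79.2 and 72.8 in DSS crypts (-1.50 ± 0.27, adjusted p = 0.401 by limma). Both DSS values lay below the filter level, so Scnn1g passed it only through the control arrays. The subunit Scnn1a was at -0.04 and Scnn1b lay below the filter. Abcg2, an efflux pump of the apical membrane, measured 2153 and 2848, then 1213 and 1288 (-0.98 ± 0.18, adjusted p = 0.401). These 2 genes were lower on both DSS arrays by more than the gap between the control arrays. Over the 20 transport genes tested, 5 lay above and 3 below (12.8% and 13.7% of all genes), and the median was -0.03. In the other direction, the butyrate carrier Slc5a8 measured 3615 and 3600, then 4920 and 5176 (0.48 ± 0.15), and Hsd11b2, which shields the mineralocorticoid receptor from glucocorticoids, 3320 and 3362, then 4527 and 4095 (0.36 ± 0.15).

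Of 27 colonocyte and brush border genes tested, 7 had DSS arrays below the control arrays and 2 above (13.7% and 12.8% of all genes). The median was -0.10. Tmigd1, an adhesion protein of mature enterocytes, measured 790 and 723 in control and 132 and 318 in DSS crypts (-1.79 ± 0.40, adjusted p = 0.685 by limma), with -2.43 and -1.14 in the pairs. Krt20, a keratin of surface cells, measured 5294 and 3855, then 2510 and 2820 (-0.76 ± 0.19). The membrane protein Emp1 measured 2407 and 1096, then 460 and 753, so both control arrays were higher but differed widely from each other. The carbonic anhydrase Car4 measured 5253 and 6784, then 2480 and 4233 (-0.88 ± 0.50), and the water channel Aqp8 3036 and 4612, then 1776 and 3248 (-0.64 ± 0.35). Abundant genes of the same cells were level, with Car1 at -0.03, Car2 at 0.15, Slc26a3 at -0.21 and Lypd8 at 0.10. The cytochrome Cyp2c55 was higher, at 1471 and 1678, then 2273 and 2594 (0.62 ± 0.27), with 0.62 in each pair.

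The other named lower genes came from several functions. Slc3a1, a subunit of the cystine transporter, measured 171 and 170 in control and 53.7 and 70.3 in DSS crypts (-1.25 ± 0.27). Lama3, a laminin chain of the epithelial basement membrane, measured 444 and 315, then 200 and 182 (-0.91 ± 0.22). Clca3a2 measured 129 and 198, then 64.3 and 91.8, and the apolipoprotein Apoc2 124 and 189, then 68.6 and 82.5. Both were dim. Homer2, a scaffold protein, measured 409 and 415, then 243 and 207 (-0.83 ± 0.18), and the thioesterase Acot1 157 and 168, then 91.3 and 82 (-0.79 ± 0.21). The adjusted p-values of these 6 genes from limma lay between 0.682 and 1. For 6 of the 12 named lower genes (Acot1, Apoc2, Ascl2, Clca3a2, Scnn1g and Slc3a1) both DSS values lay below the level of the filter, so these genes passed it only through the control arrays.

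**Figure D5:**
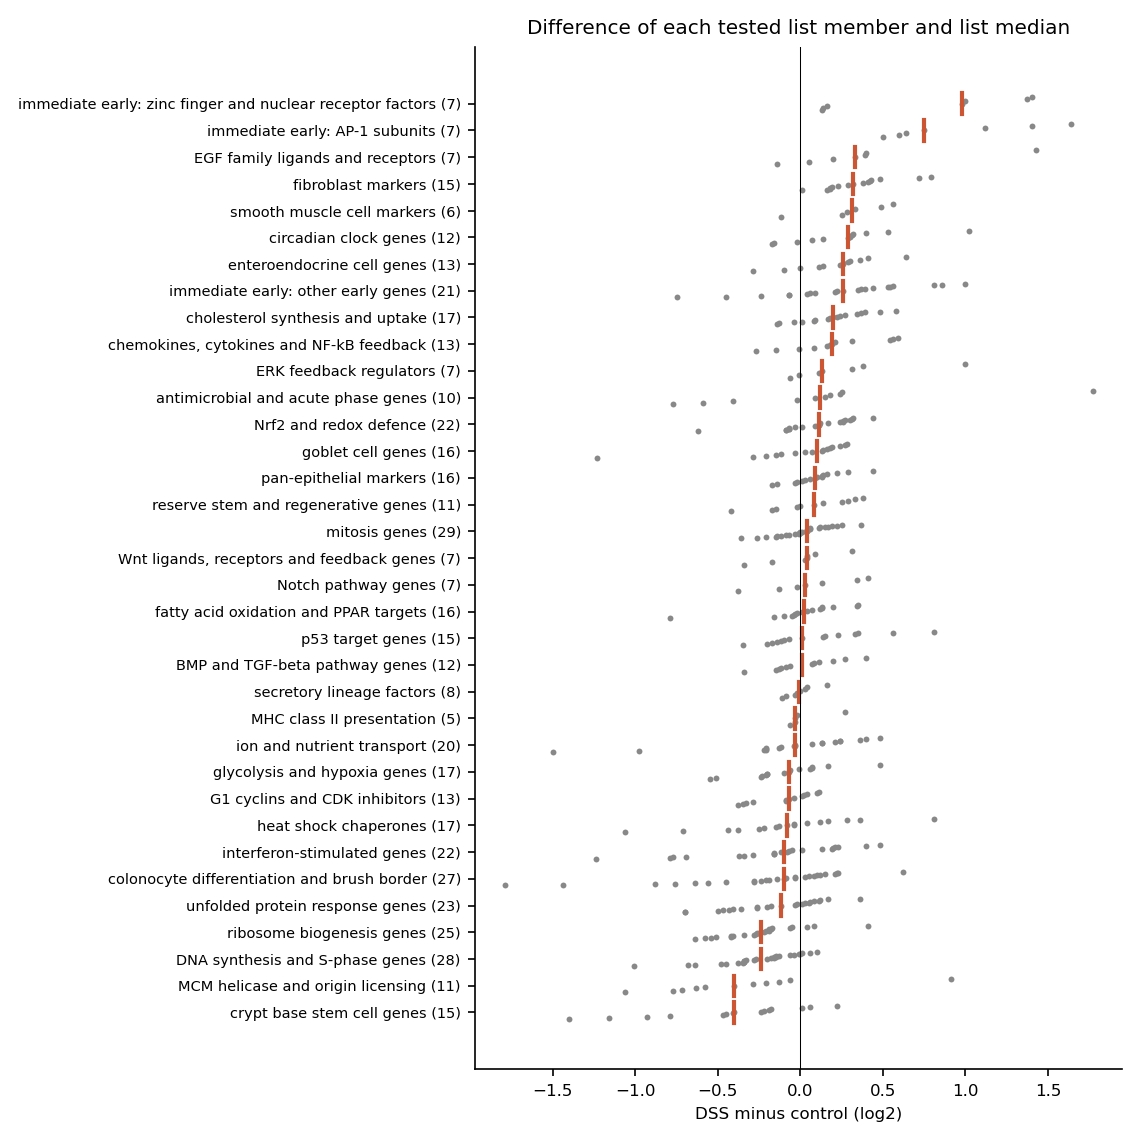
Difference between DSS and control crypts (log2) for every tested member (grey points) of each gene list with at least 5 members tested, with the list median as a red bar and the number tested in parentheses. Medians run from 0.98 for zinc finger and nuclear receptor early genes to -0.40 for crypt base and helicase genes.

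Secretory lineages were close to control. Goblet cell genes had a median of 0.10 over 16 genes, with 1 above and 1 below. Tff3, a peptide that protects mucus, measured 13234 and 15507 in control and 16818 and 14861 in DSS crypts, and Clca1 12342 and 11543, then 12656 and 11693. Retnlb, a goblet cell protein that acts on bacteria, measured 11923 and 323 in control and 4655 and 141 in DSS crypts. Its level followed the replicate number far more than the treatment, and within the pairs it was lower by -1.35 and -1.10. The lineage factors Atoh1 and Foxa1 were at 0.00 and 0.04.

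Enteroendocrine genes were higher in 10 of 13 cases, with 4 above and 0 below (12.8% and 13.7% of all genes). The median was 0.26 (0.36 in pair 1 and 0.06 in pair 2). The hormone gene Pyy measured 2337 and 2383 in control and 3105 and 3169 in DSS crypts (0.41 ± 0.17), and Tac1, which encodes substance P, 438 and 556, then 751 and 806 (0.64 ± 0.19). Insl5 measured 3340 and 6990, then 5278 and 6373, so it was higher in pair 1 and lower in pair 2, and Gcg overlapped between the groups. With control replicate 1 left out the list median was -0.02, with control replicate 2 left out 0.51 and with DSS replicate 2 left out 0.09.

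Most inflammatory genes were not bright enough to be tested. Of 38 chemokine, cytokine and NF-kB feedback genes on the array, 25 lay below the filter, among them Tnf, Il6, Cxcl1 and Cxcl2. Over all genes on the array, 6956 of 12393 passed the filter. The 13 tested had a median of 0.19, with 3 above and 1 below, but 0.02 without control replicate 1 and 0.08 over the whole list with no filter. Birc3, a survival gene induced by NF-kB, measured 1727 and 1682 in control and 2864 and 2143 in DSS crypts (0.54 ± 0.19), while a second, dim probe set gave 0.02. The inhibitor Nfkbia was at 0.21 ± 0.16 and Socs3, which dampens STAT3, at 0.56 ± 0.45. The neutrophil proteins S100a8 and S100a9 did not exceed 20.6 on any of the 4 arrays. Reg3b, an antimicrobial lectin of injured epithelium, lay below the filter but was higher on both DSS arrays, at 16.9 and 0.694 in control and 203 and 32.8 in DSS crypts on its brighter probe set, while Lcn2 measured 7.92 to 22.3 and 6.36 to 25.7. The acute phase genes Saa1 (11904 and 13590, then 9245 and 9916) and Saa2 were lower, at -0.41 ± 0.16 and -0.59 ± 0.27.

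The direction of interferon-stimulated genes depended on the control array used. Ifit1 measured 857 in control replicate 1 and 165, 173 and 133 on control replicate 2 and the DSS arrays, and Rsad2 529 against 96.4, 132 and 122. Ifit2 and Ifit3 had the same pattern, at 232 against 58.6 to 98 and 329 against 87 to 132. The list of 22 had medians of -0.40 in pair 1 and 0.26 in pair 2, with 2 above and 1 below. Its overall median was -0.10. Without control replicate 1 it was 0.26, with 17 of 20 genes tested higher. Without control replicate 2 it was -0.34, with 19 of 22 lower.

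Chaperones were divided. Of 17 heat shock genes, 5 had DSS arrays below the control arrays and 3 above (13.7% and 12.8% of all genes), with a median of -0.08. Dnajb1 was at 0.81 and the inducible Hsp70 gene Hspa1a at 0.36 ± 0.20 (2771 and 2008 in control, 3198 and 2886 in DSS crypts). Hsph1 measured 1583 in control replicate 1 and 406 to 507 on the other 3 arrays, and Dnaja1 4207 and 2876, then 1813 and 2462. Of 23 unfolded protein response genes, 8 lay below and 4 above, against 13.7% and 12.8% of all genes (median -0.12). Hyou1 and Hsp90b1, chaperones of the endoplasmic reticulum, were lower in both pairs (-0.75 and -0.65, and -0.49 and -0.38), while Creld2 was lower mostly in pair 1 (-1.26, against -0.13). The stress transcription factor Atf4 was at 0.36 ± 0.16 and Ddit3, its target, at 0.12. Redox genes under Nrf2 had a median of 0.11 over 22, and the sulfiredoxin Srxn1 was at -0.62 ± 0.20.

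The medians of cholesterol and clock genes depended on the arrays used. Of 17 cholesterol synthesis and uptake genes, 14 were higher and 3 lay above control on both arrays (12.8% of all genes), with a median of 0.20. Hmgcs1, an early enzyme of the path, measured 7294 and 6766 in control and 8771 and 7606 in DSS crypts. Leaving out control replicate 2 gave a median of -0.06, and leaving out control replicate 1 gave 0.51. Fatty acid oxidation genes had a median of 0.02 over 16 and glycolysis and hypoxia genes of -0.07 over 17. Among 12 clock genes 9 were higher, with a median of 0.29, which was 0.01 without DSS replicate 2, 0.10 without control replicate 1 and 0.49 without control replicate 2. Per3 measured 163 and 390, then 428 and 667 (1.02 ± 0.37), Dbp 854 and 1636, then 1318 and 2221 (0.53 ± 0.33), and Arntl, which acts in the opposite phase, was at -0.16 ± 0.30. Dbp and Per3 were also higher in both arrays numbered 2 than in those numbered 1, and the hour of collection is not given in the sources used here.

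Fibroblast markers were higher in all 15 cases tested, or in 14 with the arrays centred on their medians, although no more than 5 had DSS arrays above the control arrays. The median was 0.32, with 0.30 in pair 1 and 0.27 in pair 2, and 0.05 without DSS replicate 2 against 0.69 without DSS replicate 1. Summed intensity of the list was 10176 and 12433 in control and 11944 and 14989 in DSS crypts. Pdgfrb, a receptor of pericytes and fibroblasts, measured 130 and 140, then 234 and 258 (0.79 ± 0.59), while its other probe set gave 0.18. Its tumor arrays, which enter this SE, measured 58.4 and 357. Dcn measured 188 and 782, then 460 and 914, and Col3a1 860 and 1580, then 1065 and 1910, so the arrays of a group differed more than the groups. The immediate early genes are also expressed by such cells, and the part of stromal RNA in the difference between groups was not tested. Smooth muscle markers, by contrast, had medians of 0.67 in pair 1 and -0.07 in pair 2, and pan-epithelial genes had a median of 0.09.

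Values of tumor crypts are set beside the named genes as a description. The genes were chosen on the DSS arrays, which are also the baseline of tumor minus DSS, so a lean of lower genes to higher tumor values, and of higher genes to lower ones, is built in and nothing is read from it. In the same limma fit, tumor minus DSS was called for 1589 of 6956 genes (22.8%), 774 higher (11.1%) and 815 lower (11.7%). Of the 12 genes named as lower in DSS crypts, 6 were called higher in tumor than in DSS crypts, 1 lower and 5 were not called. Of the 14 named as higher, 4 were called lower, 1 higher and 9 were not called.

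Among the lower genes, Ascl2 measured 480 and 499 in tumor crypts, against 221 and 196 in control and 85.5 and 81.4 in DSS crypts. Lama3 measured 1368 and 1753, Hells 1057 and 1030 and Rgcc 909 and 857, and for these 4 genes both tumor arrays also lay above both control arrays. Abcg2 lay lower still in tumor crypts, at 555 and 537. Among the higher genes, Btg2 measured 2406 and 2682 and Adamts15 165 and 187 in tumor crypts, below both control and DSS arrays. Slpi was higher still, at 1084 and 1312. Atf3, Hbegf and Klf10 had tumor means of 2125, 1009 and 1375, against DSS means of 2746, 1369 and 1228.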

How the data were processed

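The 4 arrays of control and DSS crypts and 2 of tumor crypts were analysed from the deposited table of MAS5 signal intensities, 1 value per probe set and array. Per the labels' protocols, biotin-labelled cRNA was made from total RNA extracted with Trizol, and per the submitters' processing notes MAS5 made the values, its version not being stated. The trimmed mean of each array was 500 with the highest and lowest 2% left out, as computed from the values. No detection calls or raw array files were used.

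Of 22626 probe sets that were no controls (64 were), 20380 named 1 gene in the platform annotation, 691 several and 1555 none, and only the first were used. A pseudocount of 17.7, the 25th percentile of all intensities, was added before log2. Probe sets with a mean over the 4 control and DSS arrays above the median were kept (11313), and the brightest of a gene was tested (6956 genes). No further normalization was applied. The 3 groups entered 1 limma fit (version 3.58.1, R 4.3.3), with eBayes and an intensity trend, 2-sided tests, Benjamini-Hochberg adjustment over all genes and a threshold of 0.05. The code of the fit was also run on simulated arrays with known changes and independent noise. Those arrays lacked the variation shared by replicate numbers, so that run says nothing of its effect here. Python 3.11.15 with matplotlib 3.10.9 made the figures.

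The members and the 46 gene lists (887 symbols, 795 on the array, 521 tested) were chosen with earlier results of these data known, and a list of pancreatic genes was added later. Lists are described by counts and medians, without a test. Named genes are, first, the 12 per direction with the largest smaller pair difference among genes whose groups do not overlap. The others are the 5 per direction of smallest p among all genes tested, and list members.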

Additional observations from a re-analysis of the deposited data

How the results depend on the processing

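At an adjusted p under 0.05 by limma, the number of genes called in DSS against control was 0 as deposited, with quantile normalization, median centring, the other pseudocounts, no filter, the filter over all 6 arrays, means over probe sets, no intensity trend, and control and DSS arrays alone (152 to 379 at an unadjusted p under 0.05). It was 1 with a filter at the 75th percentile (Hbegf, adjusted p = 0.0403). Leaving out single arrays gave 0 to 9 calls. All 9 came without DSS replicate 1, and all are pancreatic genes that were bright on DSS replicate 2. With the replicate number as a block, 0 genes were called in 3 groups (217 at an unadjusted p under 0.05) and 106 in 2 groups (44 higher, 62 lower, 517 at an unadjusted p under 0.05), where 1 residual degree of freedom was left and the spread was pooled wholly across genes. In that fit of 2 groups the smallest adjusted p belonged to 2210010C04Rik, a pancreatic gene that was bright only on DSS replicate 2. The pancreatic gene Pnliprp1 was called too, as were Ifit1 and Hsph1, which stood out on control replicate 1. The 106 calls, out of 6956 genes tested, included 14 of 35 immediate early, 4 of 15 crypt base and 6 of 39 DNA replication genes. Of the early genes called, Sgk1 was lower (-0.75). Of the replication genes called, Mcm2 was higher (0.91), though its probe sets disagree. Among the calls were 25 of the 26 named genes. Those were picked for differences in both pairs or for small p, so this overlap was largely set by the choice. The difference of replicate 1 minus 2 correlated across genes at 0.42 between control and DSS arrays. It correlated at 0.42 between DSS and tumor arrays and at 0.01 between control and tumor arrays. Nothing in the labels says that the numbers pair pools. The medians of immediate early, crypt base and DNA replication genes kept their direction in the 12 alternatives that could move them, between 0.30 and 0.60, -0.52 and -0.22, and -0.36 and -0.21. The other 6 change only the spread or the tumor arrays. Among the medians whose sign turned without 1 array were those of goblet cell genes (0.10, or -0.02 without control replicate 2 and -0.01 without DSS replicate 1). Without control replicate 1, those of heat shock (0.04), unfolded protein response (0.07), colonocyte (0.02) and glycolysis genes (0.02) turned. Over all fits without 1 array, medians of mitosis genes ran from -0.05 to 0.04 and of p53 targets from -0.05 to 0.18. Wnt genes ran from -0.11 to 0.17, Notch genes from -0.04 to 0.06, BMP and TGF-beta genes from -0.07 to 0.13. Transport genes ran from -0.05 to 0.09 and secretory lineage factors from -0.05 to 0.01. MHC class II genes ran from -0.78 to 0.83 and smooth muscle markers from -0.88 to 1.29. Enteroendocrine, interferon and cholesterol medians turned as given above. The 26 named genes were chosen for groups that do not overlap, except Btg2 and Dnajb1, which entered by p alone and do not overlap either. The direction of the 26 therefore could not turn when an array was left out and says nothing of stability. Low intensity limits what can be said of genes below the filter, such as Lgr5.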

Other observations

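Some genes in none of the lists repeated across both pairs, and they were picked after their values were seen. Pck1, a key enzyme of glucose synthesis, measured 576 and 786 in control and 1371 and 1273 in DSS crypts (0.95 on the log2 scale). Pim3, a survival kinase, measured 1111 and 1047, then 2276 and 1569, and Ppp1r15a, a phosphatase subunit of the stress response, 113 and 175, then 185 and 344. Nupr1, a small stress protein, measured 2325 and 2073, then 3978 and 3022. Each of these was above both control arrays on both DSS arrays.

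Lower genes of this kind included Dpep1, a brush border dipeptidase, at 1432 and 1444 in control and 550 and 942 in DSS crypts, and Skp2, which marks CDK inhibitors for destruction, at 150 and 151, then 85.4 and 98.4. The deubiquitinase Usp1, which acts in DNA repair, measured 2101 and 2495, then 1371 and 1719. Sptssb, a subunit of the first enzyme of sphingolipid synthesis, had the lowest difference of all genes tested at -1.86, but measured 684 and 221 in the control arrays against 58.9 and 148, so most of it lay in pair 1 (-3.20, against -0.52 in pair 2). In all, 35 genes were higher and 41 lower by at least 0.5 in both pairs, and 13 and 22 of them were in no list. None passed the adjusted test by limma.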
